A study of Mus musculus with 2 samples.

Results

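The 9 genes examined here encode core parts of the Notch pathway: the receptors Notch1, Notch2 and Notch3, the ligands Jag1 and Dll1, the DNA-binding effector Rbpj and the target genes Hes1, Hey1 and Heyl. They were picked by name, with earlier results of these data known, out of 21887 protein-coding genes in the RefSeq annotation of GRCm38 (mm10). The peaks of the RUNX2 lists that lay inside each gene or within 50 kb of either of its ends were collected. The lists come from CUT&Tag with an antibody against RUNX2, the Runt domain factor on which osteoblast formation depends, in untreated MC3T3-E1 cells, a mouse embryonic osteoblast precursor line. In CUT&Tag the antibody brings the transposase Tn5 to the protein's sites on chromatin, and the DNA cut there is sequenced. The series has 1 group with 2 replicate libraries, holding 26853 and 27287 peaks, and no control library or second condition among its samples. Separate cultures are not stated for the replicates, so their spread may be technical. A stretch covered by overlapping peaks of both replicates, by at least 1 bp, is called a shared region. Each peak comes with a position and a width but without a height. Read depth is therefore unknown, no level of binding could be compared, and a gene without a peak may carry signal below the calling limit.

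Notch receptors are single-pass membrane proteins that are cut when a ligand of the Jagged or Delta-like family on a neighbouring cell binds them. The freed intracellular part enters the nucleus and joins RBPJ and a Mastermind-like coactivator on DNA, and genes of the Hes and Hey families, which encode bHLH repressors, are the classical targets. In bone, Notch signalling is known to act on osteoblast precursors and their maturation, and HES and HEY proteins are known as partners or antagonists of RUNX2.

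The following 4 stretches of 250 bases before an annotated transcript start show how the peaks met the starts of these genes. They are from RefSeq (GRCm38.p6), written 5′ to 3′ on the strand of the gene. The table used holds starts for 6 of the 9 genes and has no entry for Hes1, Hey1 and Heyl. In the first, at Rbpj, all 250 bases lay inside a shared region, and the capitals mark TGGGAA, the letters that the RBPJ protein itself recognises, on either strand. In the other 3, the capitals mark the bases that lay inside a peak: a shared region at Notch2 (63 bases, from the replicate 2 peak) and Jag1 (15 bases, from the replicate 1 peak), and a peak of replicate 1 alone at Notch1 (101 bases).
Rbpj, chr5:53590096-53590345, plus strand: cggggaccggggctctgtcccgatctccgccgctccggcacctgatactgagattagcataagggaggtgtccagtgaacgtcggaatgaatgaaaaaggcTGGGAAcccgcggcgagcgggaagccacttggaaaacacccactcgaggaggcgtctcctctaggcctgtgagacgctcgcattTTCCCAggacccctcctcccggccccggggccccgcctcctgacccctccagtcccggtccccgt
Notch2, chr3:98013288-98013537, plus strand: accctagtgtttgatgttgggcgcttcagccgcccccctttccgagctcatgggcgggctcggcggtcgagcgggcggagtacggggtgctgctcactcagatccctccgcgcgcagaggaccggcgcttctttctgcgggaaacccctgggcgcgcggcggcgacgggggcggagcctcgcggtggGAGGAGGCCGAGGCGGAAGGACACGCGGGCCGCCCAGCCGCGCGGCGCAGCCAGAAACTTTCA
Jag1, chr2:137116521-137116770, minus strand: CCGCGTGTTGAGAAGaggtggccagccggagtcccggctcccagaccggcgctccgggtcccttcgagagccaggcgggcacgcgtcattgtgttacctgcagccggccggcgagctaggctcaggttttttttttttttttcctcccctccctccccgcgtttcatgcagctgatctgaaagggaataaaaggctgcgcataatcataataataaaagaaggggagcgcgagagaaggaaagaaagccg
Notch1, chr2:26503823-26504072, minus strand: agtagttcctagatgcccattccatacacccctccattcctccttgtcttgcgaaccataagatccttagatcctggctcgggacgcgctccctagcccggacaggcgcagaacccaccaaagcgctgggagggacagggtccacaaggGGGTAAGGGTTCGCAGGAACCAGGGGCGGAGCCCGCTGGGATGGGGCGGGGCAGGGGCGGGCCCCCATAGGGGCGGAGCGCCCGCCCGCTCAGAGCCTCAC

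Hes1 and Rbpj had the most shared regions, with 7 and 6, and Hey1 had none. This order held for the 50 kb window and all peaks: within 10 kb Hes1 and Notch2 had 3 each and Rbpj 2, within 100 kb Notch1 led with 9, before Rbpj with 8 and Hes1 with 7, and with the peaks above their list's median width Rbpj had 6, Notch3 3 and Hes1 1. At 50 kb, Notch1 had 5, Notch2 had 4, Notch3 had 3, Jag1 had 2, and Dll1 and Heyl had 1 each, which makes 29 shared regions in all. At least 1 shared region was present at 8 of the 9 genes, and of all protein-coding genes 69.9% had one by the same rule, so presence alone does not set these genes apart. The same 8 genes had a peak of replicate 1, against 75.6% of protein-coding genes, and of replicate 2, against 76.1%. The number per gene differed among the members, and 7 or more shared regions were found at 2.75% of protein-coding genes and 6 or more at 5.78%. The members were chosen with earlier results of these data known, so these shares only describe where each gene stands and were not tested. For 5 or more (the Notch1 count) the share was 11.3%, for 4 or more 20.2%, for 3 or more 34.3% and for 2 or more 51.3%. The median was 3 over the 9 Notch genes and 2 over all protein-coding genes (quartiles 0 and 3, highest 18).

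**Figure D1:**
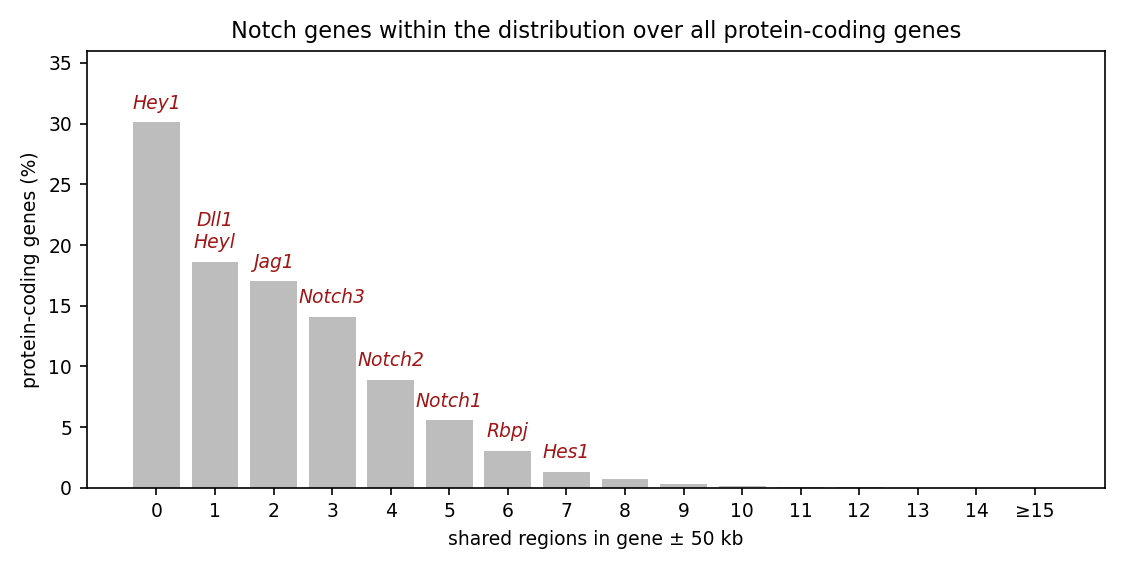
Percent of the 21887 protein-coding genes (vertical axis) with each number of shared regions in the gene and 50 kb beyond either end (horizontal axis), with the Notch genes written above the bar they belong to. The genes spread from the tallest bar, at 0 regions, to the right-hand tail, where Hes1 stands at 7.

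Sorted by peaks per replicate, the genes ran from Notch2 down to Hey1, with no value between 5 at Notch3 and 3 at Jag1. The order and this gap come from the counts themselves, in windows of unequal length, with no shares over all protein-coding genes beside them. Per 100 kb of window, the shared regions of Jag1 (1.48) and Notch2 (1.69) were close. Notch2 had 6 and 10 peaks in replicates 1 and 2 (mean 8.0 ± 2.83, SD, n = 2), Hes1 had 7 and 8 (7.5 ± 0.71), and Rbpj had 7 in each. Notch1 had 7 and 6 peaks (6.5 ± 0.71) and Notch3 had 5 and 6 (5.5 ± 0.71). From Notch2 to Notch3, the replicate values of each gene and the next touched or overlapped. Below the gap came Jag1, at 3 and 2 peaks (2.5 ± 0.71). Dll1 had 2 in each replicate, Heyl 1 and 2 (1.5 ± 0.71) and Hey1 0 in each. Notch2 had the widest gap between replicates, 4 peaks, and came first by peaks but behind Hes1, Rbpj and Notch1 by shared regions.

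**Figure D2:**
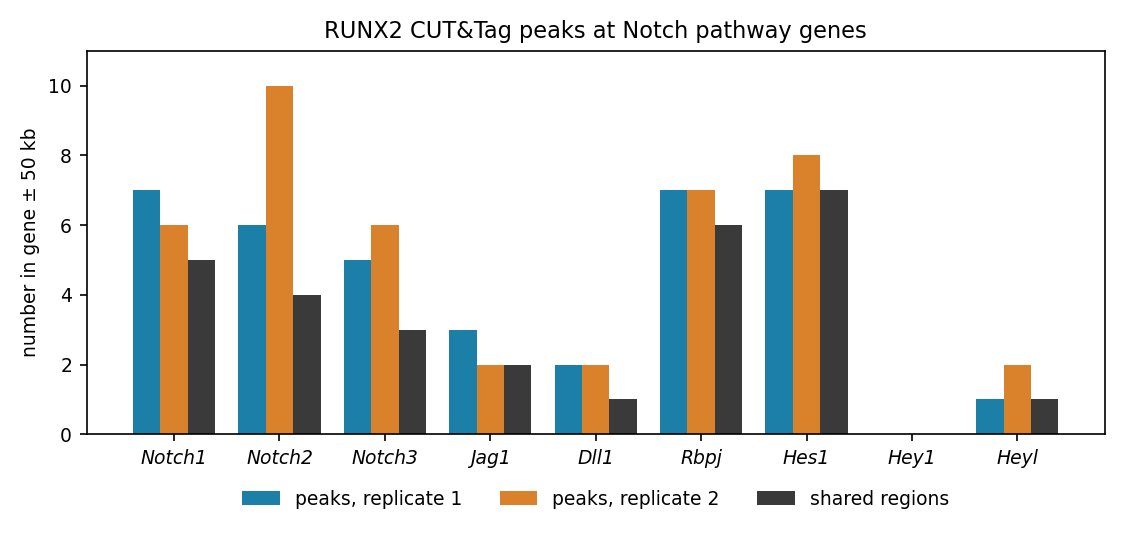
Number of peaks of replicate 1 (blue) and replicate 2 (orange) and of shared regions (dark) in each gene and 50 kb beyond either end; bars are single counts, with no error bars. Hey1 has no bar, and Notch2 is the gene with the largest gap between its replicates, 6 against 10.

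A longer gene has a larger window, so the counts were also set per length. Hes1 is a gene of 2.44 kb, and its 7 shared regions lay in a window of 102.0 kb, which is 6.83 per 100 kb. Such a density or a higher one was found at 0.676% of protein-coding genes. It rests on narrow peaks and on the whole window, since the count was 1 with the peaks above their list's median width and 3 within 10 kb. Hes7, a Notch target outside the 9 genes, was almost as dense, with 6.66 per 100 kb. Notch1 followed with 3.43 per 100 kb (12.3% of protein-coding genes were at least as dense), and Rbpj with 2.98. Notch3 had 2.05 per 100 kb (28.7%), Notch2, the longest gene at 137.0 kb, 1.69 (38.8%), and Jag1 1.48 (43.5%). Dll1 and Heyl had 0.913 and 0.86 per 100 kb, below the median of 0.984 over all protein-coding genes, and Hey1 had 0. By density, Notch2 therefore came behind Notch3. Above the protein-coding median lay 6 of the 9 genes by density and 5 by count, which for 9 genes sets nothing apart.

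RBPJ is the DNA-binding protein through which all Notch receptors act, and its gene (chromosome 5, 53555779 to 53657445) carried the widest region of the whole set. That region, from 53563912 to 53565702, lay 9.03 kb inside the low end of the gene and measured 1791 and 1568 bp in replicates 1 and 2. It was wider than 99.9% of all replicate 1 peaks and 99.8% of all replicate 2 peaks, and the replicate 2 peak lay wholly inside the replicate 1 peak. Another Rbpj region, from 53589700 to 53590682, covered the 2 tabulated starts of the gene, at 53590346 and 53590486, and was 969 and 937 bp wide. These starts lie inside the annotated span, whose low end is 34.4 kb away from the middle of the region. The other 4 lay outside, below the low end, at 12.2, 18.7, 32.8 and 46.2 kb, with widths of 432 to 959 bp. All 6 were nearer to Rbpj than to any other protein-coding gene, and none lay above the high end of the gene, where the cholecystokinin receptor gene Cckar is the next coding gene in the window. The short lncRNA gene Gm40304 lies between these 4 regions and Rbpj, with its nearer end 2.61 kb from the closest of them.

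Notch1 (chromosome 2, 26457902 to 26503822) had 5 shared regions, of which 2 were nearest to Notch1 itself. One lay inside the gene from 26494532 to 26495035, 9.04 kb from the start, with widths of 280 and 474 bp in replicates 1 and 2. The other, from 26507378 to 26508031, lay 3.88 kb beyond the start, with widths of 654 and 404 bp. The remaining 3 lay below the gene, toward or in other coding genes. The widest of the 5, 903 and 821 bp, was just inside Sec16a, which encodes a protein of endoplasmic reticulum exit sites, and 292 bp from an end of the lncRNA gene 0610009E02Rik, which runs on into Notch1. A further region was inside Sec16a, and the last, 48.8 kb away, lay 179 bp from an end of the inositol phosphatase gene Inpp5e. The start of Notch1 was covered by a peak of replicate 1, 263 bp wide, and not by a peak of replicate 2, whose nearest peak was 3705 bp away.

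All 4 shared regions of Notch2 (chromosome 3, 98013538 to 98150367) were nearest to Notch2, and 3 of them lay inside it. The region at its start, from 98013475 to 98014488, measured 596 bp in the first replicate and 1014 bp in the other. The widest of the 4, at 990 and 1083 bp, lay 43.5 kb into the gene (98056454 to 98057572). Another, 93.4 kb into the gene, was 282 and 366 bp wide, and the last lay 19.5 kb before the start, with widths of 383 and 346 bp. Notch2 thus had its 2 widest regions at the start and in the gene body.

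Notch3 (chromosome 17, 32120820 to 32166896) had no peak of either replicate within 1 kb of its tabulated start. Its nearest shared region to that start lay 5.82 kb into the gene, from 32160644 to 32161491, with widths of 477 and 846 bp. A second lay 3.13 kb beyond the other end of the gene, with widths of 537 and 524 bp. The third was 29.3 kb away, was 499 and 807 bp wide, and lay 75 bp from an end of the transcribed pseudogene Pdxk-ps. Its nearest protein-coding gene was Rrp1b, a gene of nucleolar function, at 28633 bp, so that it was almost as close to Notch3 as to Rrp1b.

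The ligand genes had few regions. At Jag1 (chromosome 2, 137081451 to 137116520), which encodes the ligand Jagged1, a shared region from 137116756 to 137117419 began 0.236 kb before the start and reached away from the gene, with widths of 664 and 359 bp. The second, 13.5 kb below the gene, lay inside the neighbouring gene Slx4ip and was 585 and 706 bp wide. Replicate 1 had a further peak of 458 bp inside Jag1 without a partner in replicate 2. Dll1 (chromosome 17, 15367354 to 15376932), which encodes the ligand Delta-like 1, had 1 shared region, and it lay 19.3 kb away at an end of Fam120b (68 bp), a coactivator gene, with widths of 669 and 692 bp. Nearer to Dll1 the replicates differed. Replicate 1 had a peak of 452 bp whose middle lay 943 bp beyond the high end, and replicate 2 a peak of 361 bp whose middle lay 1569 bp beyond the low end, each without a partner.

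Among the target genes, Hes1 stood at the high end of the set and the Hey genes at the low end. Hes1 (chromosome 16, 30065357 to 30067796) encodes the bHLH repressor that is the best known Notch target. Its window holds no other protein-coding gene, and all 7 shared regions were nearest to it. The 2 closest lay at its low end, from 30065039 to 30065404, across the end itself, and from 30063835 to 30064298, 1.29 kb away. Their widths were 261 and 356 bp, and 447 and 464 bp. Further ones lay 7.96, 22.3 and 40.4 kb below the gene, and 22.9 and 43.8 kb above it. All 7 were of modest width, from 261 to 514 bp in replicate 1 and from 268 to 517 bp in replicate 2. Some of the outer ones were in or near noncoding genes: the one 40.4 kb below lay inside the lncRNA gene 9030404E10Rik, 3.16 kb from its end, the one 22.3 kb below lay 3.61 kb from that gene, and the one 22.9 kb above lay 1.79 kb from the pseudogene Gm20040. Gm20040 and 9030404E10Rik are annotated in the same window, and the data do not tell which gene, if any, a region serves.

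Hey1 (chromosome 3, 8663359 to 8667038) and Heyl (chromosome 4, 123233556 to 123249870) encode HEY bHLH repressors. Hey1 had no peak of either replicate in its window, which was so for 21.3% of all protein-coding genes, and the nearest shared region was 206.0 kb away. Heyl had 1 shared region, 33.0 kb from the gene and 581 bp from an end of Pabpc4, which encodes a poly(A)-binding protein, with widths of 530 and 391 bp. A peak of 182 bp in replicate 2 lay beside it. In neither window was there a peak of any replicate for which Heyl or Hey1 was the nearest coding gene.

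**Figure D3:**
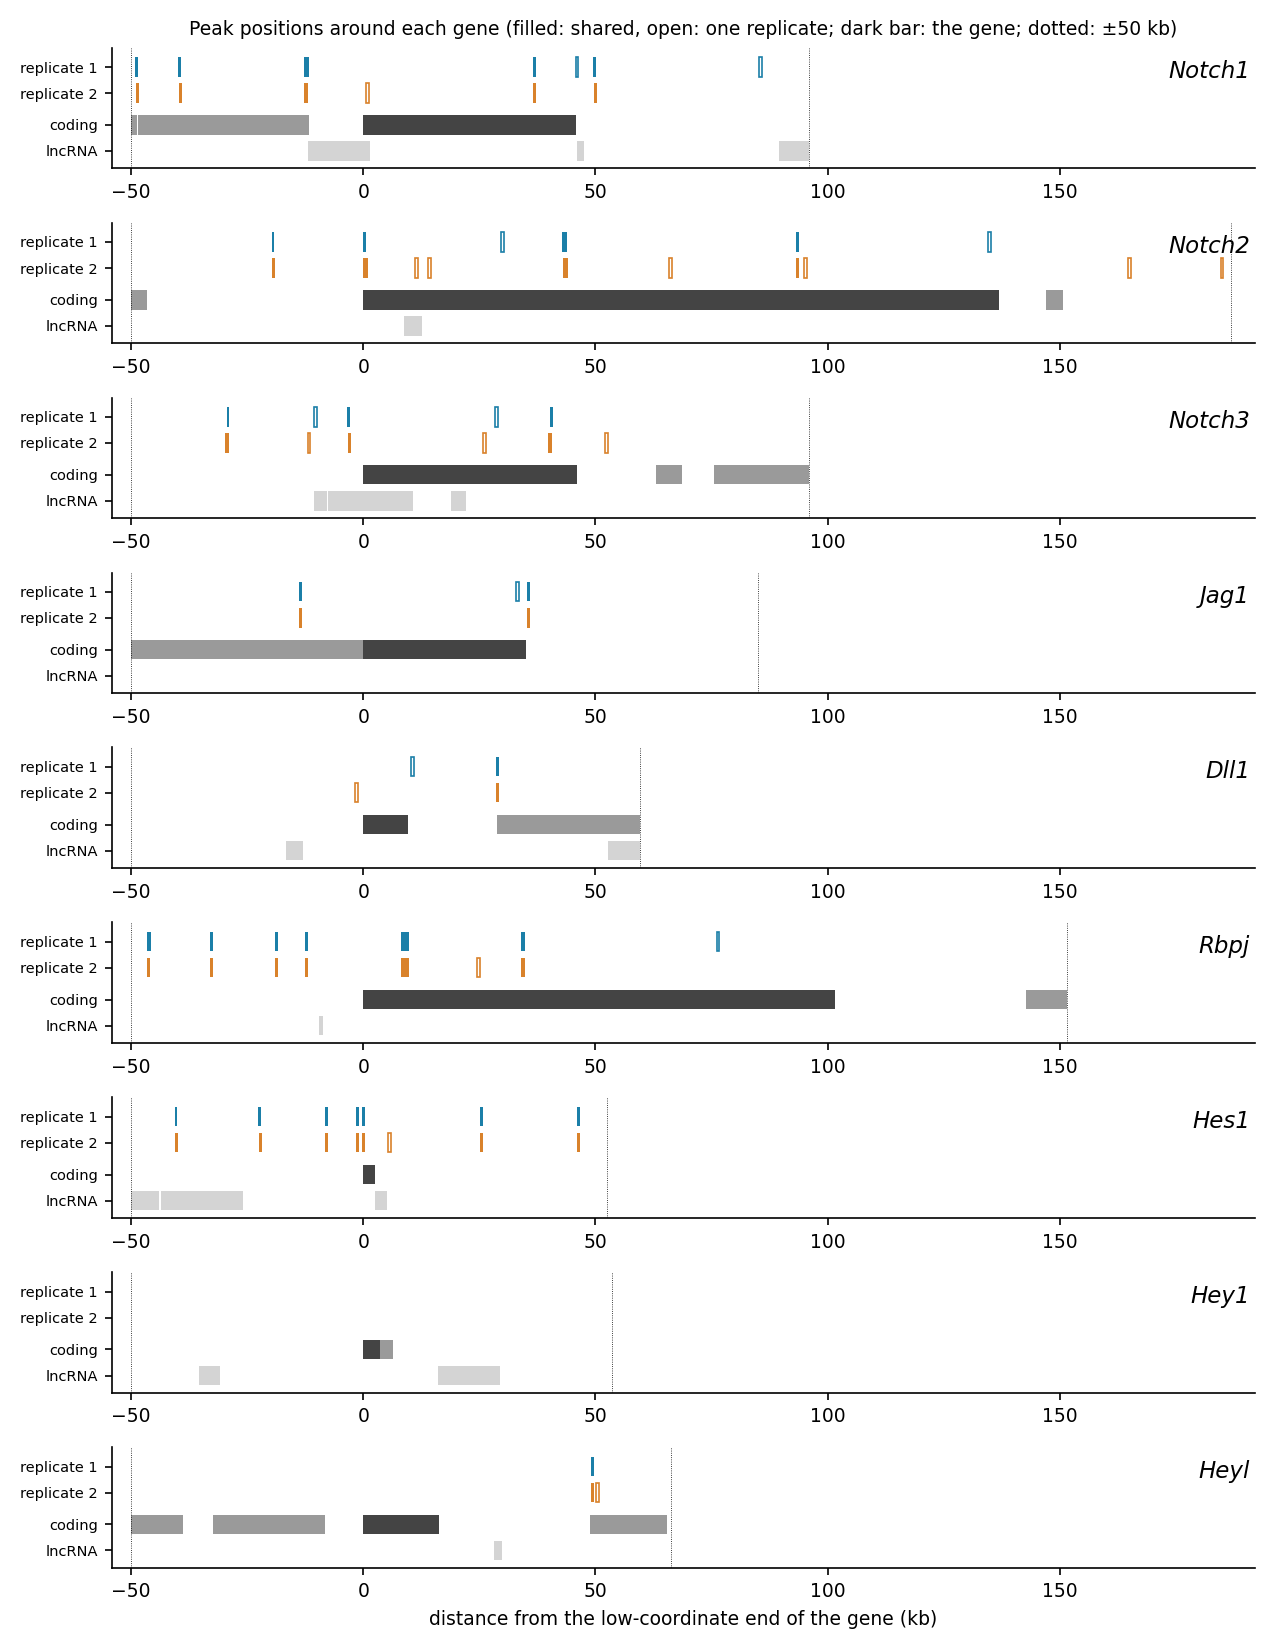
Peaks of replicate 1 (blue) and replicate 2 (orange) around each of the 9 genes, by distance in kb from the low-coordinate end of the gene; filled bars are peaks of shared regions, open bars are peaks of 1 replicate, and narrow bars are drawn at least 0.6 kb wide. Dark bars are the genes, grey bars other coding genes and light bars lncRNA genes; Hes1 shows 7 pairs of filled bars in a window without another coding gene, and the Hey1 window is empty.

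By position, most of the 29 regions were away from the starts of the Notch genes, but so is most of a window reaching 50 kb beyond either end. Inside the genes lay 7, below the low end 16 and above the high end 6, judged by the middle of the region. Any overlap with the gene itself was found at 5 of the 9 genes, the 3 receptor genes, Rbpj and Hes1, against 41.4% of all protein-coding genes. The middle lay within 1 kb of a start in 4 and over 10 kb away in 20 (69.0%), with a median distance of 33.0 kb, where either end stood in for the start of Hes1 and Heyl. The Notch gene was the nearest coding gene for 22 regions, and another coding gene was nearer for 7: Sec16a for 2, and Inpp5e, Rrp1b, Slx4ip, Fam120b and Pabpc4 for 1 each. No matching shares over the windows of all protein-coding genes stand beside the distances and the count of 22, so they describe position only. At 6 of the 9 genes at least 1 region was nearest to the gene itself, against 44.5% of all protein-coding genes. Dll1, Hey1 and Heyl had none. Of the regions just inside the limit of 50 kb, the farthest were 48.8 kb from Notch1 and 46.2 kb from Rbpj, and the first outside it were 64.4 kb from Rbpj, 66.8 kb from Heyl and 68.2 kb from Notch1. Regions went on beyond the limit at several genes, and within 100 kb Notch1 had 9.

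At the start itself, within 1 kb, 4 of the 9 genes had a shared region, namely Notch2, Jag1, Rbpj and Hes1, against 33.9% of all protein-coding genes. In replicate 1, 6 genes had a peak there, with Notch1 and Dll1 in addition (38.8% of protein-coding genes), and in replicate 2 the same 4 (39.0%). The Notch1 and Dll1 starts thus depended on replicate 1. For the 6 genes with a tabulated start the count was 3, against 35.1% of such genes, and of the other 3 genes, judged by either end, Hes1 had a region, against 29.0%. For 9 genes such counts are near the background and set nothing apart.

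The letters before the starts were searched for 3 short motifs on both strands, each on its own, so that matches of different motifs could share bases. The RUNX core, TGTGGT or TGCGGT, was in none of the 8 stretches of 250 bases before the starts of the 6 tabulated genes. Of all 32851 such stretches in the table, 18.6% held it, and the share was 19.1% among the 7380 that a shared region touched. The RBPJ core TGGGAA, found in 21.6% of all stretches, was at Rbpj: 149 and 65 bases before the first start, as printed above, where the second match is the same site as the one 205 bases before the other start. The pattern TGANTCA, a loose form of the AP-1 letters with N for any base, was in 6.75% of all stretches. It was found before the upstream start of Dll1, 109 bases away, with T as the middle base. A match describes letters and is not evidence of binding, and the absence of the RUNX core holds for these windows alone. The stretches were rich in G and C, from 56.0% at Dll1 to 72.0% at Notch2, against a median of 52.4% over the table.

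The 29 regions were of ordinary width and the replicates differed in places. Their merged width had a median of 629 bp, the same as for the 18128 shared regions of the whole data set. The peaks behind them had a median of 530 bp in replicate 1 (261 to 1791) and 474 bp in replicate 2 (245 to 1568), against 492 and 497 bp over all shared regions. In 17 regions the replicate 1 peak was the wider and in 12 the replicate 2 peak, and in 9 the widths differed by over 1.5 times. The stretch covered by both peaks made up 39.9 to 96.3% of the merged region, with a median of 68.6% (65.0% over all shared regions). Lowest was the Notch1 region beside Inpp5e (614 and 245 bp), and highest the Hes1 region 1.29 kb from the gene. In 3 regions the peak was at least 900 bp wide in both replicates, 2 at Rbpj and 1 in the body of Notch2. Each of these peaks was wider than at least 94.9% of all peaks of its replicate. The share of all shared regions that are this wide is not given here, so the count sets nothing apart.

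**Figure D4:**
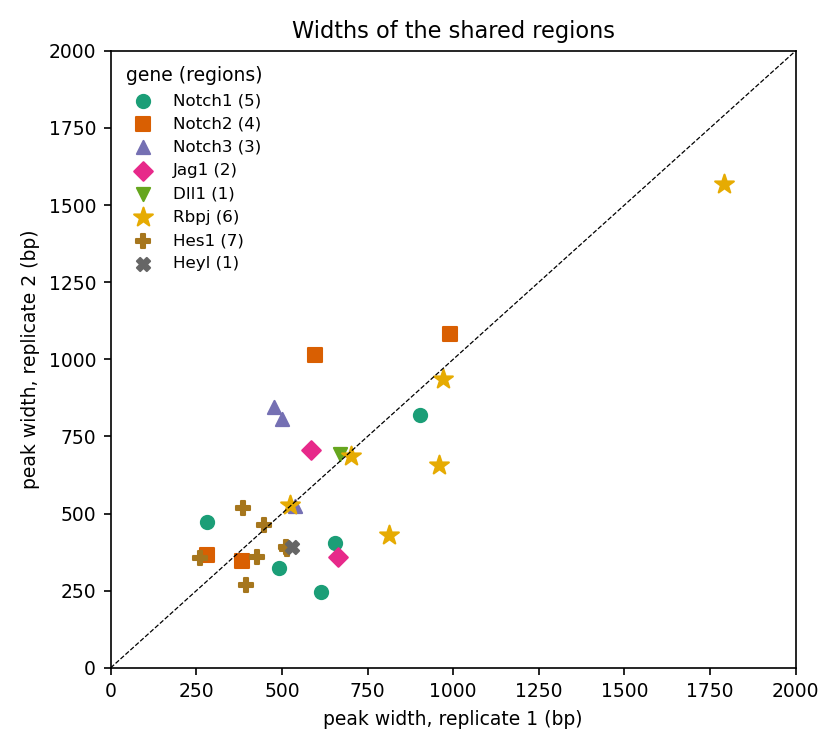
Width of the replicate 1 peak (horizontal, bp) against that of the replicate 2 peak (vertical, bp) for each of the 29 shared regions, marked by gene; the dashed line is equal width. The Rbpj region of 1791 and 1568 bp stands far out, and the 7 Hes1 regions cluster at the lower left, none above 517 bp.

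Of the peaks in the windows, 29 of 38 in replicate 1 (76.3%, 95% Wilson interval 60.8 to 87.0) and 29 of 43 in replicate 2 (67.4%, 52.5 to 79.5) belonged to shared regions. Over all peaks the shares were 68.2% and 67.2%, inside these intervals, which cover counting error only. The 23 peaks of a single replicate, 9 in replicate 1 and 14 in replicate 2, were narrower. Their medians were 267 bp (169 to 605) and 209.5 bp (166 to 446), against 260.5 and 256 bp for all single-replicate peaks. Notch2 held 8 of the 23, 2 from replicate 1 and 6 from replicate 2. The widest, 605 bp in replicate 1, lay inside Rbpj, and replicate 2 had no peak within 41257 bp of it. At Notch3, single peaks of the 2 replicates lay 1273 bp apart below the gene and 2431 bp apart inside it, close but without overlap.

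The rest of the pathway was taken from a list of 45 other genes in 6 classes, and all 45 were found in the annotation. A shared region lay at 42 of them (93.3%), against 69.9% of protein-coding genes, and the exceptions were the Delta-like homologue Dlk1, the Fringe gene Mfng and the Deltex gene Dtx1. The median was 3 regions per gene, as for the 9 core genes. Of 131 gene-region pairs, made by 130 different regions, 49 had the listed gene as the nearest coding gene, at 25 genes (55.6%, background 44.5%). The list was chosen with earlier results of these data known and its excess was not tested. None of these regions lay in a window of the 9 core genes.

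Classes of the list differed in whether regions sat at starts, where the background was 33.9%. Proteases and gamma-secretase subunits, which cut the receptor or its precursor, had a shared region within 1 kb of a start at 8 of 9 genes, among them Adam10, Adam17, Psen2, Ncstn and Furin. Genes of trafficking and inhibition had this at 6 of 8, such as Numb and Fbxw7, and nuclear cofactors at 5 of 9, such as Maml1, Ep300 and Ctbp1. Modifiers of ligand and receptor had it at 2 of 6, including Pofut1, which encodes the O-fucosyltransferase of Notch. Among the genes counted so far as having one, Mib1, Dtx3, Dtx4 and Snw1 had no tabulated start and were judged by either end of the gene. Mfng, Itch, Hes2 and Hes3 were judged in this way too and had no shared region there. Neither the 6 other receptors and ligands (Notch4, Jag2, Dll3, Dll4, Dlk1 and Dlk2) nor the 7 other targets (Hes2, Hes3, Hes5, Hes6, Hes7, Hey2 and Nrarp) had a shared region at a start. Among the core genes, however, the receptor gene Notch2, the ligand gene Jag1 and the target gene Hes1 did have one. A region at a start could still lie nearer to another coding gene. At Ncstn and Dtx3, which are counted here, no shared region was nearest to the gene itself. The difference between classes was not tested, and the classes are small.

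The highest counts of the list, 7 shared regions as at Hes1, were those of the coactivator genes Maml2 and Maml3 and of Hes7, a gene of the segmentation clock. Hes1 was the nearest coding gene for all 7 of its regions. Hes7 was nearest for 1 of its 7, and 5 and 7 of those of Maml2 and Maml3 were nearest to the gene, in genes far longer than Hes1. None of these 3 had a region within 1 kb of a tabulated start, but Hes7 had one 0.111 kb from its span, and Hes1, without a tabulated start, was judged by either end. Likeness here rests on counts from 2 replicates.

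Several of the widest regions in the classes belonged by position to other genes. By the sum of the peak widths of both replicates, the widest region of each class was that of Maml3 among cofactors (1273 and 1437 bp, nearest to Maml3), Nrarp among targets (1233 and 993 bp, nearest to the tubulin gene Tubb4b) and Dlk2 among receptors and ligands (1037 and 1169 bp, nearest to Tjap1). For the other classes it was that of Psenen (1211 and 823 bp, nearest to Proser3), Neurl1a (1114 and 861 bp, nearest to Sh3pxd2a) and Numbl (531 and 947 bp, nearest to Coq8b). Of these 6, the Maml3 region alone was nearest to the listed gene. Aph1b and Aph1c shared a region at the start of Aph1b.

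**Figure D5:**
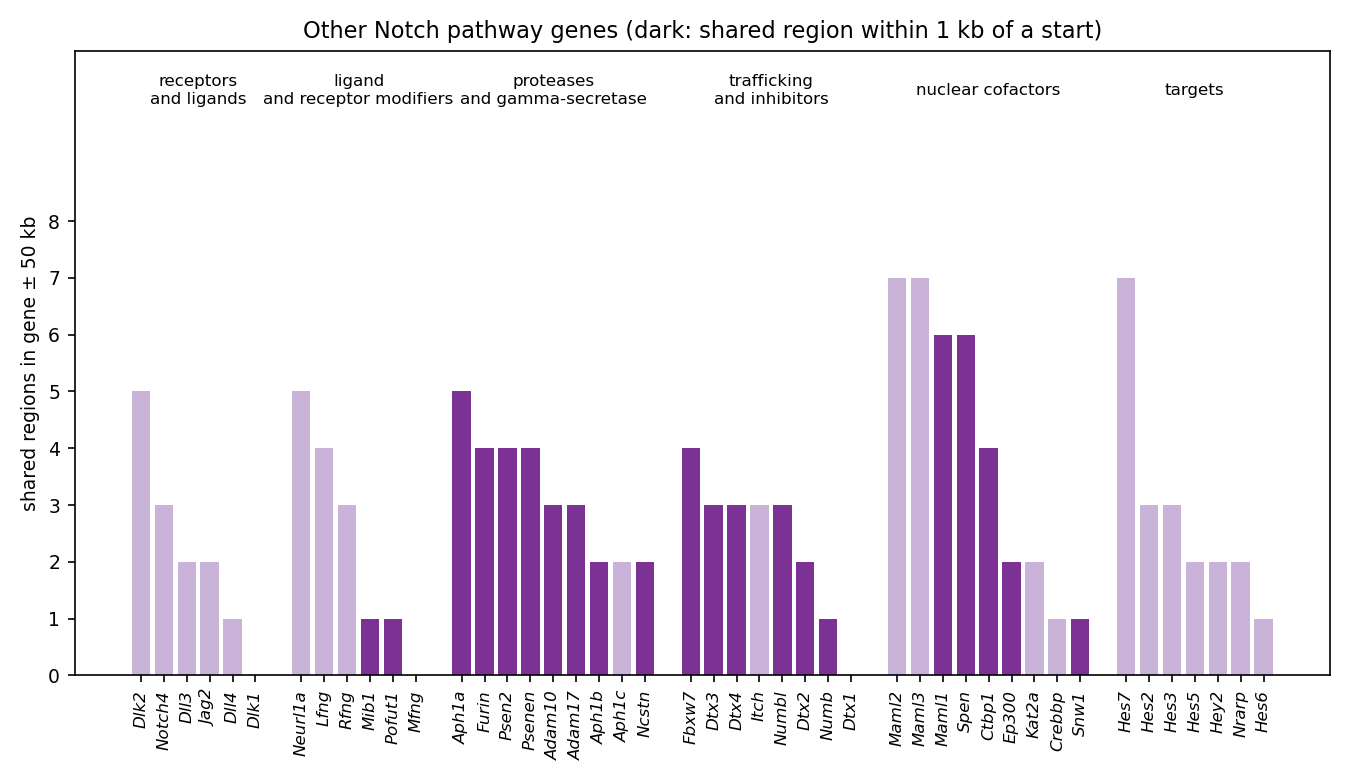
Number of shared regions in the gene and 50 kb beyond either end (vertical axis) for 45 other Notch pathway genes, by class. Dark bars mark a shared region within 1 kb of a start, or of either gene end where no start is tabulated. Maml2, Maml3 and Hes7 are highest at 7, the protease class is dark for 8 of 9 genes, and the receptor, ligand and target classes hold no dark bar. The core genes are not drawn, and of these Notch2, Jag1, Rbpj and Hes1 had a shared region at a start.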

How the data were processed

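The deposited lists hold a running number, chromosome, start, end and width for each peak, in 5 columns without a header, and peaks were listed per replicate. Per the submitters' processing notes, fastp 0.19.6, Bowtie2 and deepTools were used with GRCm38 (mm10), without stated roles. Peak caller, threshold and control were not given in the sources used here. Depth is unknown, since the lists hold no read numbers.

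Gene spans came from RefSeq (GRCm38.p6) and starts from a table of promoters, which holds 17492 of the 21887 protein-coding genes on chromosomes 1 to 19, X and Y; for the others either end of the gene was used. A peak or region counted for a gene where at least 1 bp lay in the span or within 50 kb. Overlaps were computed in Python 3.11.15 with pandas 2.3.3, tested on simulated peaks, and gave the counts of bedtools 2.31.1 (18323 and 18327 overlapping peaks). With 1 group there is no contrast and no test between groups; counts stand beside the share over all protein-coding genes. The members and lists were chosen with earlier results of these data known. Named are the 9 genes, the coding genes nearest to their regions and, from the pathway list, the genes with the most regions, with the widest region of a class or with as many regions as Hes1; a few genes of the planned list are not reported here, and the others of the list and noncoding neighbours are named as examples chosen after their values were seen. Alternatives were wider peaks, a reciprocal overlap of 50%, other distances, midpoints and each replicate alone; 20 kb and no distance were added after the data were seen.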

Additional observations from a re-analysis of the deposited data

How the results depend on the processing

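The number of shared regions depended most on distance and peak width. It was 13 within 10 kb, and all 13 were nearest to the Notch gene itself. With 20 kb it was 19, and without any distance beyond the ends 8, at 5 genes (both settings chosen after seeing the data). With peaks wider than the median of their own list it was 16, of which 12 were nearest to the Notch gene, with 2 genes having one at the start, a median width of 820.5 bp and 80% of the replicate 2 peaks and 61.5% of the replicate 1 peaks shared. Hes1 then had 1 region and Rbpj 6. Leaving out either replicate gave a median width of 391 to 505.5 bp, since single peaks then stand in for merged regions, and 38 to 43 peaks. A reciprocal overlap of 50% gave 28 regions, and midpoints gave 29. Within 100 kb there were 41. Of 57 recomputed values for the 9 genes together and the pathway list, 45 stayed near the reported value (counts within 1.5 times, shares within their interval, the median width within the SD of both replicates). Counts of single genes are not among the 57, and some of them moved by over 1.5 times, as given above for Hes1 and Rbpj. The background moved too: 52.8% of protein-coding genes had a region within 10 kb (6 of 9 Notch genes) and 77.7% within 100 kb (8 of 9). Hey1 had no region under any of these settings. No paired analysis was possible because there is a single group. Depth is unknown, so regions missing from a list cannot be told from regions below its threshold.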
